A study of Mus musculus with 9 samples.

Results

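Expression of 10 cartilage and bone differentiation genes was followed across 9 clones of p53-/- mouse embryonic cells that differ in ploidy. The genes are the transcription factor genes Sox9, Sox5, Sox6, Runx1, Runx2 and Sp7, the matrix genes Acan and Matn2, and the mineralization genes Alpl and Ibsp. They are 10 of the 20018 named genes on the array, found through the RefSeq accessions that the array design gives to its probes. Each gene is represented by its brightest probe, and the remaining probes are described beside it.

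Cartilage and bone arise from common mesenchymal precursors. SOX9 directs precursors into the cartilage lineage, where SOX5 and SOX6 act with it on cartilage matrix genes such as Acan. RUNX2, and downstream of it SP7, are needed for bone-forming cells, which make mineralized matrix with the help of alkaline phosphatase (Alpl) and bone sialoprotein (Ibsp). RUNX1, best known from blood formation, is also expressed in early skeletal precursors.

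The arrays covered 3 triploid, 3 tetraploid and 3 diploid clones, all with the genotype p53-/- and all described as embryonic cells, with 1 array per clone. Per the labels the cells had no treatment before RNA extraction and were grown in serum-supplemented medium. Each array is 1 clone, and the sample names of 7 clones extend the name of diploid clone 1, so clones may share a line of descent. Nothing in the labels says that clones of a group came from separate animals or cultures, and p-values therefore measure only the spread between these samples. Values are log2 signals minus the array's own 75th percentile, so a value of 0 lies at that percentile and total RNA per cell was not measured.

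By the call of the scanner software, 44.8% to 50.9% of an array's spots were well above background and 0 were saturated. Pearson's r over probes, which are not independent replicates, was 0.948 to 0.985 for the 9 pairs of clones within groups and 0.909 to 0.975 for the 27 pairs between groups. Diploid clone 1 was alone on its slide, and the other 8 clones shared the other slide. The Y-linked genes Ddx3y and Eif2s3y lay above background on 5 of 9 arrays. Triploid clone 1 stood apart from its group, with r of 0.948 and 0.956 with triploid clones 2 and 3, which had 0.985 with each other. Its r was 0.959, 0.964 and 0.949 with diploid clones 1 to 3 and 0.955, 0.957 and 0.93 with tetraploid clones 1 to 3. Of 12 mesenchyme markers, 11 or 12 lay above background on every array, and the labels name no tissue that could be checked further. Pou5f1 and Zfp42 of pluripotent cells, Epcam and Cdh1 of epithelium, Myod1, Myog, Myf5 and Ckm of skeletal muscle and Ptprc and Adgre1 of blood cells were not well above background on any array. Other markers of those lists were, namely Nanog and Tdgf1 on 9 arrays, Dppa5a on 8 and Sox2 on 4 for pluripotent cells. For epithelium these were Krt19 on 9 arrays, Krt18 on 6, Krt8 on 2 and Cldn4 on 1, and for blood cells Csf1r on 9.

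Of the 10 genes 5 entered the test, and Runx1 was the one called different between ploidy groups. At its brighter probe it was 6.78-fold higher in triploid than in tetraploid clones, a comparison that called 2.71% of all features. The call held in 11 of 22 other settings, and the second probe, with a log2 difference of 1.58, was not called. Matn2 lay lower in every triploid clone than in every tetraploid clone without passing the test. These 2 groups did not overlap for 26% of all features. Sox9 varied widely between clones of the same ploidy. Alpl was above background on only 3 arrays, so its spread includes undetected values. Runx2 varied little at a low signal, and Sox5 was not detected on any array. The same clones enter all 3 comparisons, so these are not independent of each other.

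**Figure D1:**
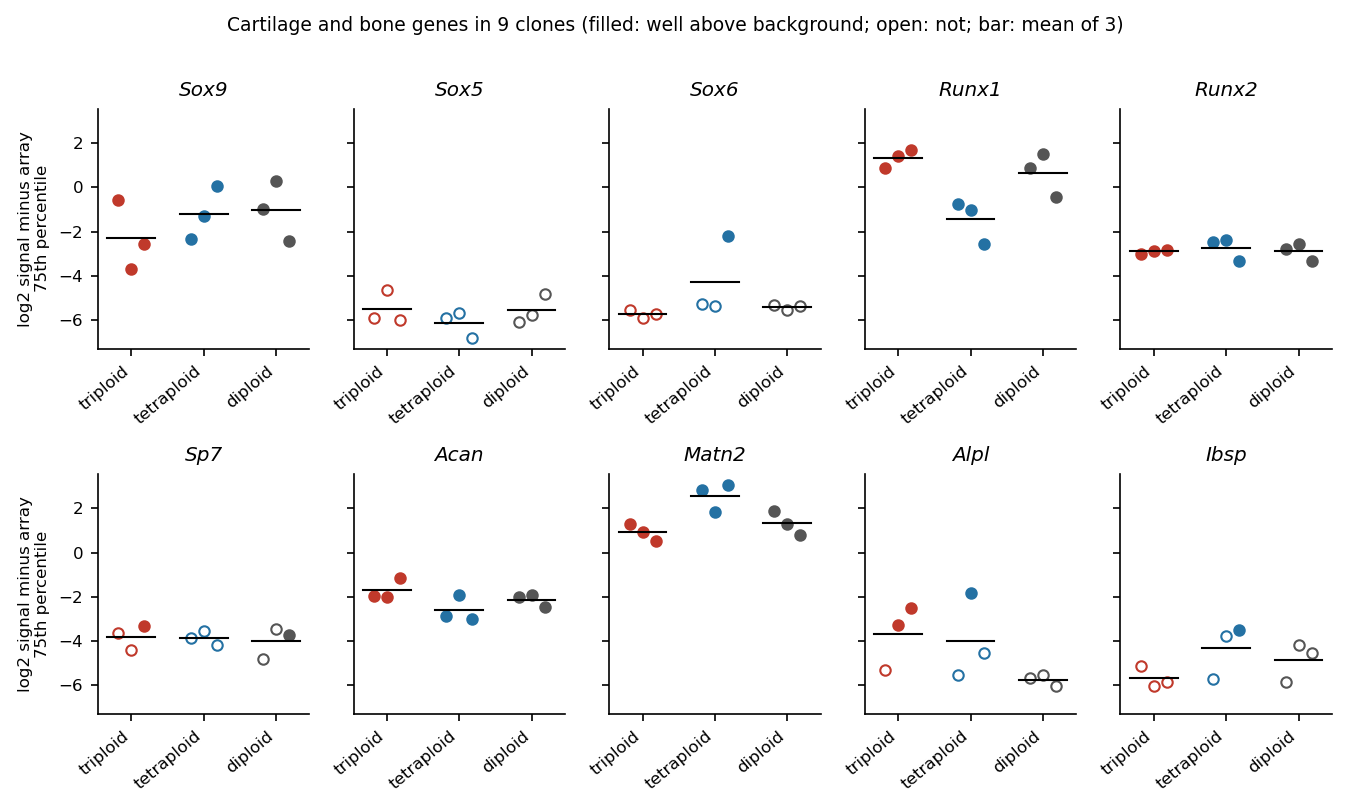
Log2 signal minus the 75th percentile of the array (vertical axis) for the 10 genes in triploid, tetraploid and diploid clones. Filled points lay well above background, open points did not, and bars are means of 3 clones; Runx1 separates the tetraploid clones from the triploid clones, while Sox5 is open throughout.

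Runx1 encodes a DNA-binding subunit of core-binding factor, on chromosome 16. Its brighter probe had log2 values of 0.86, 1.44 and 1.68 in triploid clones 1 to 3, of -0.73, -1.02 and -2.56 in tetraploid clones and of 0.87, 1.53 and -0.42 in diploid clones. Every tetraploid clone lay below every triploid and every diploid clone, and the triploid and diploid clones overlapped. Means were 1.32 ± 0.42 in triploid clones, -1.44 ± 0.98 in tetraploid clones and 0.66 ± 0.99 in diploid clones (SD, n = 3 each). The difference of triploid minus tetraploid clones was 2.76 ± 0.58 (SE, 95% interval 1.45 to 4.07, adjusted p = 0.0441, limma). Tetraploid minus diploid clones gave -2.10 ± 0.58 (adjusted p = 0.152), and triploid minus diploid clones gave 0.66 ± 0.58 (adjusted p = 0.565), neither past the threshold of 0.05.

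The call on Runx1 was close to the threshold. It held in 11 of 22 other settings, with adjusted p between 0.0281 and 0.139 and differences between 1.58 and 3.11. Without triploid clone 2 the difference was 2.71 (adjusted p = 0.127), without triploid clone 3 it was 2.59 (0.139), without tetraploid clone 1 it was 3.11 (0.0754), without tetraploid clone 3 it was 2.20 (0.120) and without diploid clone 1 it was 2.76 (0.0750). The last of these leaves out the only array of its slide, and the fit with slide as a block gave an adjusted p of 0.0739.

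A dimmer probe of Runx1, assigned by the array design to another RefSeq transcript, was also above background on all 9 arrays. It had -1.65, -0.86 and -0.90 in triploid clones, -2.07, -2.35 and -3.72 in tetraploid clones and -0.47, 0.02 and -1.16 in diploid clones. Both probes thus put the 3 tetraploid clones lowest. They differed in the comparison of triploid with diploid clones, which was -0.60 ± 0.47 (adjusted p = 0.506) at the dimmer probe and positive at the brighter one. For triploid minus tetraploid clones the dimmer probe gave 1.58 ± 0.47, short of the threshold (adjusted p = 0.102).

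**Figure D2:**
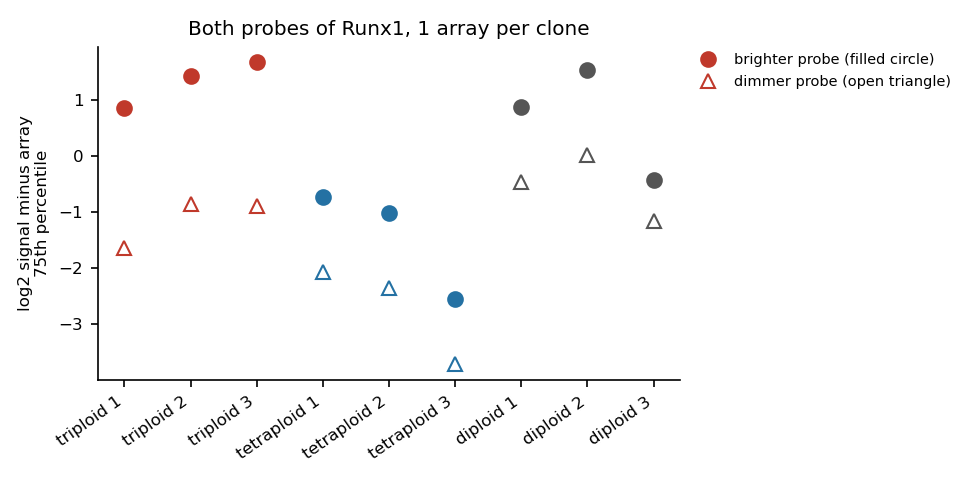
Both probes of Runx1 in each clone, as log2 signal minus the 75th percentile of the array (vertical axis), with clones of 1 group in 1 colour. At both probes all 3 tetraploid clones lie below the triploid and diploid clones, while the triploid clones lie lower relative to the diploid clones at the dimmer probe.

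Runx1 has a distal and a proximal promoter, and both are shown because it is the gene with a called difference and its probes belong to different transcripts. The first 250 bases upstream of each RefSeq start (GRCm38.p6, minus strand) lie at chr16:92826075-92826324 for the distal and chr16:92697330-92697579 for the proximal start. The files do not say which promoter a probe reports on.
Runx1 distal upstream: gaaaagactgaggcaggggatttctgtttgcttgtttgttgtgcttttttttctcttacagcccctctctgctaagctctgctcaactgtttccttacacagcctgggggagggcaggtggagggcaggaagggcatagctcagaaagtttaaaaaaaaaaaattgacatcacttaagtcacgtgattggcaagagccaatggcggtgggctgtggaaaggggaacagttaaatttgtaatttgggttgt
Runx1 proximal upstream: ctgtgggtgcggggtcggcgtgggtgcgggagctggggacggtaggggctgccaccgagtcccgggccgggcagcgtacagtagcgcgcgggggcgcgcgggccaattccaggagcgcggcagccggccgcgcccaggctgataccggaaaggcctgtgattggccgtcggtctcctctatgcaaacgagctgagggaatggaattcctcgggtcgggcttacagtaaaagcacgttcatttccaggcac
The 300-base window around the distal start had a GC content of 45% and 2 CpG dinucleotides, and that around the proximal start had 69% and 35.

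Just past their distal starts, Runx1 and Runx2 carry nearly the same stretch, which is shown because it holds a pair of the RUNX motif TGTGGT, read here on the other strand as ACCACA (capitals). The stretches are bases 20 to 49 of Runx1 (chr16:92826026-92826055) and bases 15 to 44 of Runx2 (chr17:44814584-44814613), both on the minus strand of GRCm38.p6 and counted from 1 at the RefSeq start.
Runx1 distal start: tcataaacaACCACAgaACCACAagttggg
Runx2 distal start: tcacaaacaACCACAgaACCACAagtgcgg
The longest run common to both windows is 22 bases and occurs in 2 of 32851 windows of all genes, those of Runx1 and Runx2. The pair of motifs with its spacer, 14 bases long, occurs in 4 windows, including one of Runx3. TGTGGT on either strand is found at least once in 16.8% of windows and at least 2 times in 1.81%. Of the 10 genes, 7 had RefSeq windows, 14 in all, and Runx1, Runx2 and Sox6 had the motif in at least 1 of them. A match is a description of the letters and not evidence of binding.

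Runx2, the regulator that bone-forming cells require, on chromosome 17, was nearly level across the clones. Its values were -2.99, -2.86 and -2.84 in triploid clones, -2.47, -2.39 and -3.34 in tetraploid clones and -2.81, -2.55 and -3.33 in diploid clones. The groups overlapped, and the whole range over 9 clones was 0.95, the narrowest of the 10 genes. Triploid minus tetraploid clones gave -0.16 ± 0.31 (95% interval -0.86 to 0.53, adjusted p = 0.767, limma), and the interval for triploid minus diploid clones was -0.70 to 0.70. Runx2 was above background at this probe on all arrays and at its other probe on 0 of 9 arrays. The values at this probe were low, with the lowest signals called above background at -4.97 to -3.50 over the arrays.

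Sox9, the lead factor of the cartilage lineage, on chromosome 11, has 10 spots per array, of which 8 to 10 were used. It had -0.59, -3.68 and -2.56 in triploid clones, -2.34, -1.29 and 0.08 in tetraploid clones and -0.98, 0.29 and -2.40 in diploid clones. Clones of 1 ploidy differed from each other by up to 3.09 in triploid clones, 2.41 in tetraploid clones and 2.69 in diploid clones. The SD over the spots of 1 array, which covers noise within that array only, was 0.0545 to 0.388. No comparison of groups passed, with differences of -1.25 ± 0.93 for triploid minus diploid clones, -0.15 ± 0.93 for tetraploid minus diploid clones and -1.10 ± 0.93 for triploid minus tetraploid clones (adjusted p = 0.485, 0.957 and 0.515, limma).

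The SOX9 partners were scarcely detected. Sox5, on chromosome 6, lay between -6.81 and -4.63 and was not well above background on any array. Sox6, on chromosome 7, had -5.57, -5.90 and -5.71 in triploid clones, -5.27, -5.39 and -2.20 in tetraploid clones and -5.32, -5.56 and -5.39 in diploid clones. Tetraploid clone 3 was the only clone with Sox6 above background, and the same clone had the highest Sox9 of its group. Diploid clone 2 had the highest Sox9 of all clones, at 0.29, and its Sox6 was not above background.

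Sp7, which encodes osterix and acts after RUNX2, on chromosome 15, was near the detection limit. Its values were -3.66, -4.42 and -3.33 in triploid clones, -3.89, -3.56 and -4.17 in tetraploid clones and -4.81, -3.49 and -3.74 in diploid clones. It was above background in triploid clone 3 and diploid clone 3 alone, and its groups overlapped.

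Acan encodes aggrecan, the large proteoglycan of cartilage, on chromosome 7. It was above background on all arrays, with -1.98, -2.004 and -1.14 in triploid clones, -2.86, -1.94 and -2.99 in tetraploid clones and -2.01, -1.91 and -2.48 in diploid clones. The triploid and tetraploid clones overlapped through tetraploid clone 2. Triploid minus tetraploid clones gave 0.89 ± 0.36 (SE, n = 3 per group), which did not pass after adjustment (adjusted p = 0.201, limma). Differences from diploid clones were 0.42 ± 0.36 in triploid clones and -0.46 ± 0.36 in tetraploid clones (adjusted p = 0.545 and 0.575).

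Matn2 encodes matrilin 2, a filament-forming matrix protein that is not restricted to cartilage, on chromosome 15. It had 1.30, 0.95 and 0.50 in triploid clones, 2.83, 1.82 and 3.07 in tetraploid clones and 1.87, 1.29 and 0.78 in diploid clones. All triploid clones lay below all tetraploid clones, and diploid clone 1 lay just above tetraploid clone 2. The difference of triploid minus tetraploid clones was -1.66 ± 0.40 and missed the threshold (adjusted p = 0.0625, limma). It passed without triploid clone 1 (-1.85, adjusted p = 0.0456) and without tetraploid clone 2 (-2.03, 0.0311), and with normexp background correction (-1.62, 0.0432). Tetraploid minus diploid clones gave 1.26 ± 0.40 (adjusted p = 0.195).

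Alpl, on chromosome 4, encodes the tissue-nonspecific alkaline phosphatase that frees phosphate for mineral. It was above background in 3 clones, at -3.29 and -2.51 in triploid clones 2 and 3 and at -1.85 in tetraploid clone 2. The other values were -5.31 in triploid clone 1, -5.54 and -4.56 in tetraploid clones 1 and 3, and -5.66, -5.53 and -6.06 in diploid clones. Alpl was thus detected in 2 of 3 triploid clones, 1 of 3 tetraploid clones and 0 of 3 diploid clones, and it did not enter the test because no group had it above background on all arrays. Since triploid clone 1 did not detect it either, the signals set no lower bound on the fold between triploid and diploid clones.

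Ibsp, on chromosome 5, encodes a matrix protein that marks mineralizing bone. Its chosen probe was above background in tetraploid clone 3 alone, at -3.50, and its other values lay between -6.05 and -3.79. The other probe was above background in tetraploid clones 2 and 3, at -3.26 and -2.23, and was at -5.82 in tetraploid clone 1. At that probe triploid clones had -5.85, -6.16 and -5.97 and diploid clones -6.07, -4.65 and -5.07, none of them above background. No group had either probe above background on all its arrays, and Ibsp was not tested.

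Of the 10 genes, 5 entered the test, namely Sox9, Runx1, Runx2, Acan and Matn2, and each of them was above background on all 9 arrays. Between triploid and diploid clones 0 of the 5 were called (0 also at an unadjusted p under 0.05, against 21.2% of features), where 1.84% of all 21800 features were called. Between tetraploid and diploid clones 0 of 5 were called (2 at an unadjusted p under 0.05, against 14.8% of features), against 0.0734% of all features. Between triploid and tetraploid clones 1 of 5 was called (3 at an unadjusted p under 0.05, against 20.8% of features), against 2.71% of all features. The groups did not overlap for 2 of 5 genes between triploid and tetraploid clones, Runx1 and Matn2, for 1 of 5 between tetraploid and diploid clones, Runx1, and for 0 of 5 between triploid and diploid clones. Over all features the groups did not overlap for 26%, 22.1% and 28% in the same order of comparisons. With 5 genes, these shares are no result about the genes as a set.

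**Figure D3:**
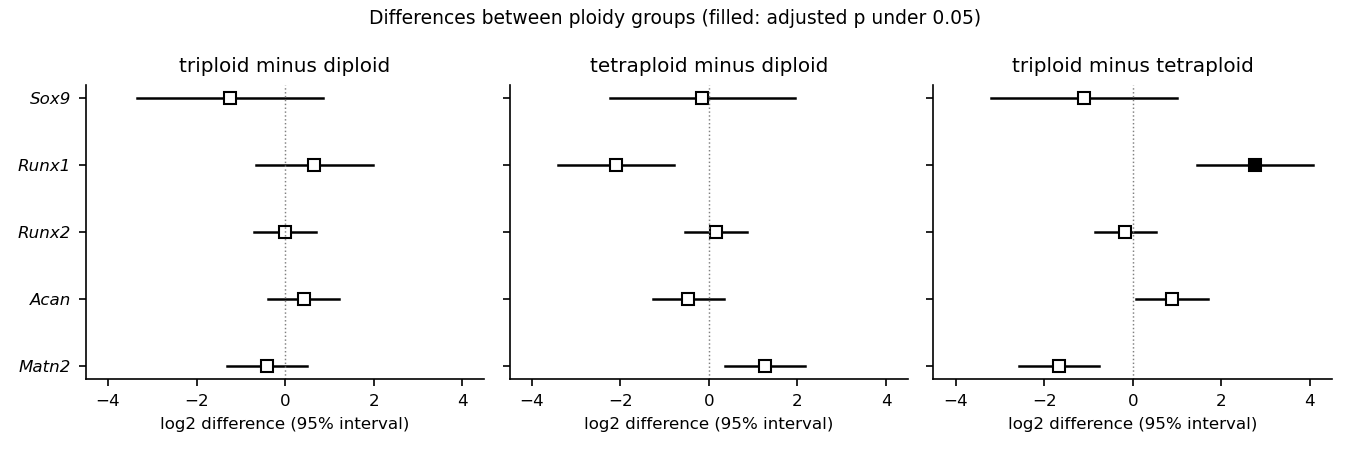
Log2 differences between groups (horizontal axis) with 95% intervals for the 5 genes that entered the test, triploid minus diploid, tetraploid minus diploid and triploid minus tetraploid. The 1 filled square, Runx1 in triploid minus tetraploid clones at 2.76, is the call at an adjusted p under 0.05; the intervals of Sox9 are the widest.

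The 3 genes whose values ranged most widely over the 9 clones among those above background on at least 3 arrays were Runx1, Alpl and Sox9. The range of Alpl includes its values on arrays that did not detect it. Genes with the most similar profile were found by the root mean square difference of centred log2 values over the 9 clones, as a description over samples that share their arrays. For Runx1, among 12436 other named genes, these were Dusp6, a phosphatase that acts on ERK, at 0.36, Smim3 at 0.37 and Bex4 at 0.44. Dusp6 had 3.26, 4.19 and 4.10 in triploid clones, 2.23, 1.30 and 0.79 in tetraploid clones and 3.12, 3.72 and 2.18 in diploid clones. For Alpl the nearest were the formin gene Daam2 at 0.71, Gsap at 0.72 and 1190005I06Rik at 0.78. For Sox9 they included Smoc1, which encodes a secreted calcium-binding protein, at 0.53 and Scg5 at 0.56.

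Another 6 lists of skeletal genes, 121 genes in all with 92 in the test, place the 10 genes among their relatives and targets. Between triploid and tetraploid clones 6 of the 92 fell and 0 rose, and the lower calls made up 6.52% of these genes against 1.62% of all features. Hapln1 is among the 6, but it entered the test through the tetraploid group alone, where it is high. Col10a1, Comp and Tnfrsf11b, also among the 6, entered only through the tetraploid and diploid groups, where they are higher. The part of these genes in this share is therefore no support for a difference. Between triploid and diploid clones 3 fell (3.26% against 1.23%), among them Col10a1 with the same limit. Another 1 rose (1.09% against 0.615%). Between tetraploid and diploid clones 0 of 92 were called by limma, against 0.0734% of all features. An unadjusted p under 0.05 was found for 31, 27 and 16 of the 92 in this order of comparisons, against 20.8%, 21.2% and 14.8% of all features. The median difference over the 92 genes was -0.30, -0.27 and 0.25 in these comparisons, against 0.16, 0.10 and -0.02 over all features and 0.04, 0.10 and 0.10 over the named genes alone. In these bulk RNA samples, fewer cells of a type and less RNA per cell cannot be told apart.

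The called genes were mainly matrix genes. Col10a1, the collagen of hypertrophic cartilage, had -2.99, -5.10 and -5.62 in triploid clones, 3.95, 2.94 and 4.58 in tetraploid clones and 0.18, -1.71 and 1.18 in diploid clones. It was above background in triploid clone 1 and in all tetraploid and diploid clones, and the 3 groups did not overlap. Triploid minus tetraploid clones gave -8.40 ± 0.85 (adjusted p = 0.00313, limma), or -7.35 with the arrays that did not detect it held at their detection limit, and triploid minus diploid clones gave -4.45 ± 0.85 (0.0431), or -3.41 with the same arrays at that limit (0.0464).

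Omd, which encodes osteomodulin of bone matrix, fell in triploid clones against both other groups. Its values were -0.40, -0.71 and -1.71 in triploid clones, 2.63, 3.16 and 3.30 in tetraploid clones and 1.09, 1.40 and 1.74 in diploid clones, all above background and with no overlap. The differences were -3.97 ± 0.36 against tetraploid clones (adjusted p = 0.00288) and -2.35 ± 0.36 against diploid clones (0.0220). Comp, which encodes a matrix protein of cartilage and tendon, was not above background in any triploid clone and was at 1.54, -0.71 and 1.58 in tetraploid clones and -1.82, -2.23 and -0.24 in diploid clones. Triploid minus tetraploid clones gave -4.805 for Comp (adjusted p = 0.0116, limma), or -4.54 with undetected arrays at their detection limit (0.0123). As a bound, Comp was at least 23.3-fold lower in triploid than in tetraploid clones.

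Hapln1, whose product links aggrecan to hyaluronan, was not above background in any triploid clone or in diploid clones 2 and 3. It had -0.64, -2.49 and 0.09 in tetraploid clones and -2.40 in diploid clone 1, and its level in triploid clones was at least 6.74-fold lower than in tetraploid clones. It entered the test through the tetraploid group alone, where it is high, and the fitted difference of -4.79 passed (adjusted p = 0.0321) while that with undetected arrays at their limit, -2.75, did not (adjusted p = 0.0507). Ogn, which encodes osteoglycin, was at 4.28, 3.73 and 2.95 in triploid clones, 5.55, 5.65 and 7.03 in tetraploid clones and 4.08, 3.34 and 4.27 in diploid clones. Triploid minus tetraploid clones gave -2.42 ± 0.48 (adjusted p = 0.0363). Tnfrsf11b, which encodes osteoprotegerin, a decoy receptor that restrains bone resorption, was at -2.02, 0.27 and -5.86 in triploid clones, the last not above background. It had 5.17, 2.80 and 2.80 in tetraploid clones and 3.21, 3.30 and 1.91 in diploid clones, and triploid minus tetraploid clones gave -6.13 ± 1.34 (adjusted p = 0.0479).

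Among the transcription factors, Msx2, a homeobox gene of skull growth, fell in triploid against diploid clones. It had -1.86, -2.53 and -2.30 in triploid clones, 1.42, -1.04 and -0.07 in tetraploid clones and 0.62, 0.06 and 0.66 in diploid clones, a difference of -2.68 ± 0.54 between triploid and diploid clones (adjusted p = 0.0475). Mkx, a tendon factor, rose, with 0.29, 0.60 and -0.38 in triploid clones, -0.61, -0.64 and -0.37 in tetraploid clones and -1.18, -1.43 and -1.69 in diploid clones. Triploid minus diploid clones gave 1.61 ± 0.28 (adjusted p = 0.0322). The 4 calls against diploid clones, on Col10a1, Omd, Msx2 and Mkx, all ended without triploid clone 2 (adjusted p 0.0661 to 0.160), without diploid clone 1 (0.0522 to 0.115) and without diploid clone 3 (0.0788 to 0.136).

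**Figure D4:**
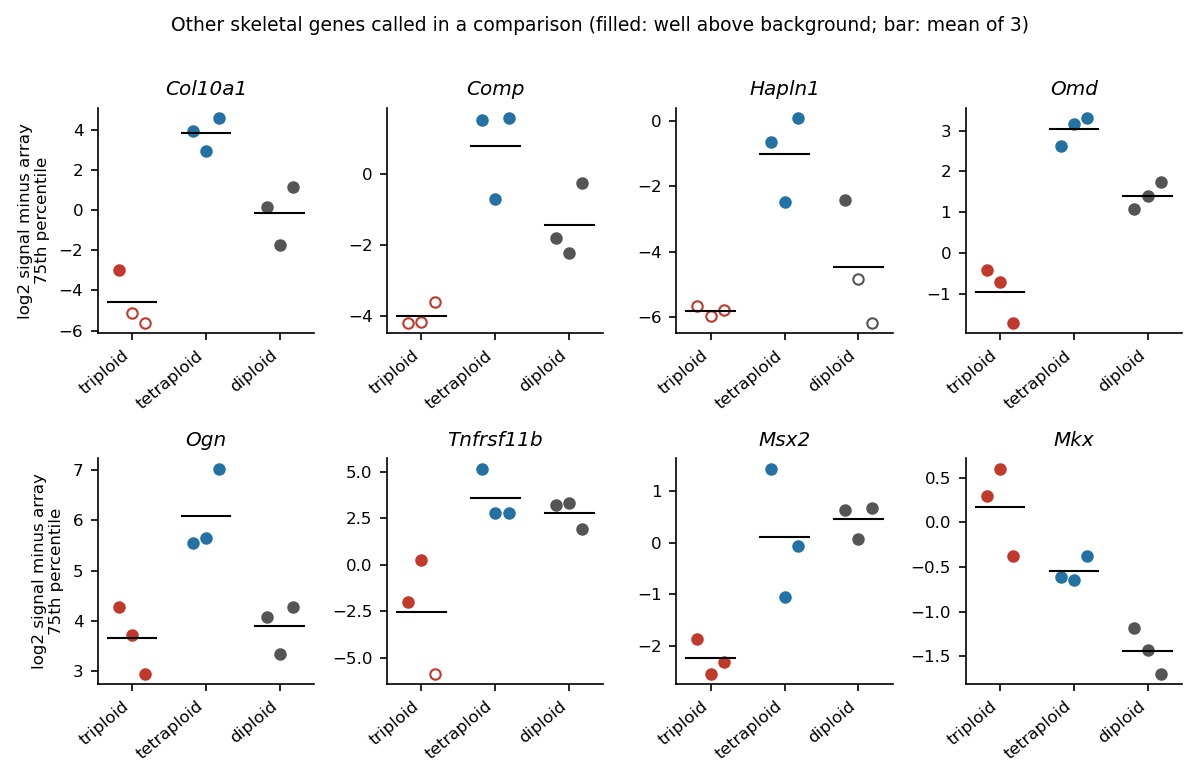
Log2 signal minus the 75th percentile of the array (vertical axis, own scale per gene) for the 8 other skeletal genes called in at least 1 comparison. Filled points lay well above background and bars are means of 3 clones; Col10a1 and Omd run from triploid at the bottom through diploid to tetraploid at the top.

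Leaving out a clone moved these counts. Between triploid and tetraploid clones Col10a1 and Omd were called in 9 of 9 such fits, Comp in 8, Hapln1 in 5, Ogn in 4 and Tnfrsf11b in 2. Comp was lost without tetraploid clone 3 (-4.42, adjusted p = 0.0526). Hapln1, Ogn and Tnfrsf11b were all lost without triploid clone 3 (adjusted p 0.0815 to 0.118), tetraploid clone 1 (0.0694 to 0.144) or tetraploid clone 3 (0.0959 to 0.120). The number of skeletal genes called ranged from 2 to 20, with 20 without triploid clone 1 and 2 without tetraploid clone 3. Between triploid and diploid clones it ranged from 0, without triploid clone 2 or diploid clone 1, to 20 without triploid clone 1.

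The lists differed in how many genes entered the test. Of the 23 cartilage matrix genes 12 did, and 11 were not above background on all arrays of any group. Among these 11, Col2a1, the main collagen of cartilage, was above background on 4 arrays, at up to 2.47 in diploid clone 1, Matn3 was on 4 and Matn1 on 0. Of 25 bone matrix and mineralization genes 18 entered, and of 13 SOX and RUNX relatives and partners 12 did. The last list held 0 called genes in any comparison, with a median of 0.09 between triploid and tetraploid clones, and Cbfb, the partner subunit of RUNX proteins, gave 0.22 there. The signals and receptors had the lowest median between triploid and tetraploid clones, -0.78 over 18 genes, with 16 of them negative and 1 called.

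**Figure D5:**
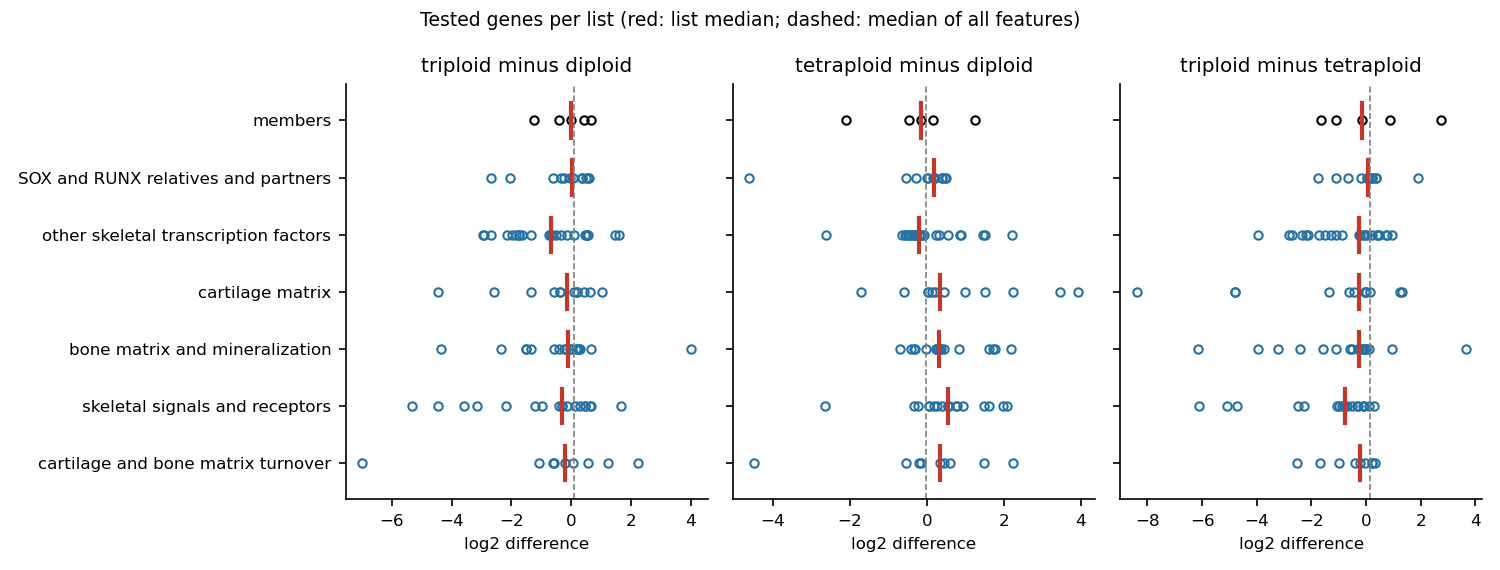
Log2 differences (horizontal axis) of every tested gene in each list, triploid minus diploid, tetraploid minus diploid and triploid minus tetraploid. Red marks are list medians and the dashed line is the median of all features (0.10, -0.02 and 0.16); signals and receptors have the lowest median, -0.78, in triploid minus tetraploid clones.

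Markers of some other cell types also differed between the groups, not all in the same direction. The summed levels of the mesenchyme, pluripotent, skeletal muscle, endothelial and blood markers in triploid clones overlapped those of both other groups. Of the 12 mesenchyme markers, 8 had an unadjusted p under 0.05 between triploid and diploid clones by limma, against 21.2% of features, and 0 were called. The summed level of the 6 epithelial markers was -0.58 to 0.87 in triploid clones, 4.94 to 5.62 in tetraploid clones and 3.70 to 5.03 in diploid clones, carried by Krt19, which fell in triploid clones against tetraploid clones (-5.79 ± 0.54, adjusted p = 0.00288, limma) and against diploid clones (-5.08 ± 0.54, adjusted p = 0.00458). Of the 2 epithelial markers in the test, 1 difference was positive and 1 negative between triploid and tetraploid clones. The positive one was Krt18, not called, with -4.97, -2.29 and -1.57 in triploid clones against -3.14, -3.13 and -4.68 in tetraploid clones. Of these arrays, Krt18 was above background in triploid clones 2 and 3 and tetraploid clone 1. Epcam and Cdh1, the defining markers, were not above background on any array. The summed level of the 8 fat cell markers was 1.61 to 4.75 in triploid clones, 6.22 to 6.47 in tetraploid clones and 4.11 to 6.99 in diploid clones. In it Fabp4 fell against tetraploid and diploid clones (-6.49 ± 0.83 and -5.35 ± 0.83) and Pparg, the main fat cell regulator, against tetraploid clones (-3.29 ± 0.56), while Adipoq was above background on 1 array. Lpl of the same list lay the other way, with -2.20, 3.72 and 4.57 in triploid clones against -1.61, -2.99 and 0.05 in tetraploid clones, and was not called (adjusted p = 0.326). Of the 5 fat cell markers in the test, 2 differences were positive and 3 negative between triploid and tetraploid clones. Of the 8 smooth muscle markers, Cnn1 fell between triploid and diploid clones (-2.77 ± 0.54), with summed levels of 9.52 to 10.2 in triploid clones and 10.9 to 11.2 in diploid clones. The summed level of the 4 osteoclast markers, carried by Ctsk, was -1.23 to 0.31 in triploid clones, -1.12 to 5.11 in tetraploid clones and 3.09 to 4.51 in diploid clones, and Calcr was not above background on any array. The summed level of the 4 neural markers lay the other way, at 1.60 to 3.69 in triploid clones, 0.08 to 0.68 in tetraploid clones and -0.25 to 1.83 in diploid clones, with Gfap not above background on any array. Neither of these lists had a called gene by limma, with 0 to 2 genes per comparison at an unadjusted p under 0.05. The part of these markers in the differences of the skeletal genes was not tested.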

How the data were processed

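Total RNA of 9 clones was hybridized to Agilent mouse arrays with 1 dye (Cy3). Per the file headers, the scans went through Feature Extraction 10.7.3.1, and the array was designed on mouse build mm9. The deposited scanner files hold processed signals as intensity, background-subtracted and detrended per spot, with no scaling between arrays. A table of log2 values was deposited too. Checked against the scanner files, its entries equalled the log2 signal less diploid clone 1's and less 1 constant for each array, within 0.001 at 100% of probes, and it served as an alternative.

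The log2 processed signal was averaged over the spots of a probe (55681 probes) and centred on each array's 75th percentile. A probe was kept (25473 were) where every array of some group showed it well above background, and the brightest kept probe stood for a named gene, giving 21800 features. Symbols came from RefSeq accessions through a GRCm38.p6 table, whose assembly also gives the promoter windows. Group means were compared in limma 3.58.1 (R 4.3.3), with p-values adjusted over all features by Benjamini-Hochberg and a threshold of 0.05. Tested on simulated data for triploid against tetraploid clones, 77% of log2 changes of 2 and 96% of log2 changes of 4 were recovered, with 9 false calls. The simulated noise was independent for each feature and array, without shared descent or slide, so these rates need not hold for the real clones. Arrays give no counts, and the number of clones limits the precision. "At least" folds set a gene that is dark in a whole group against the lowest signal called above background there.

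Members, lists, tests and alternatives were chosen with earlier results of these data known. The text names all 10 genes, every gene called in the other skeletal lists up to 4 per list and comparison, and 3 nearest profiles for each of the 3 widest-ranging genes, of which 1 is not reported here. Cell type markers are named by their calls and detection. Deviations from the group means correlated weakly between same-numbered clones (r of -0.132 to 0.0927) and between differently numbered ones (-0.066 to 0.126). Same-numbered pairs with a tetraploid clone were all positive, at 0.0324 to 0.0927. The labels do not say that numbers pair clones, and numbers were not used as pairs in the main fit. The planned normexp correction ran on median pixel signals, since the files used here hold no mean ones. Other settings were scaling, background correction, filters, probe choice, prior, slide, groups in the fit and clones left out.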

Additional observations from a re-analysis of the deposited data

How the results depend on the processing

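No member was called between triploid and diploid or tetraploid and diploid clones in any setting run. Between triploid and tetraploid clones the 1 call became 0 with quantile normalization, a filter of 1 array above background, no filter, the mean of a gene's probes or slide as a block, and 2 with normexp; with a clone left out it ranged from 0 to 2, where the 1 without tetraploid clone 1 is Ibsp, which passes the filter only because that undetected array is gone and is no support for a difference. Features called ranged, with a clone left out, from 64 to 1645 between triploid and diploid, 0 to 113 between tetraploid and diploid and 136 to 1616 between triploid and tetraploid clones. Skeletal genes ranged from 0 to 20, 0 to 2 and 2 to 20 in the same comparisons. For triploid against diploid clones, against 402 features, the filter of 1 array gave 97, no filter 103, only those 2 groups 226 and the slide block 81. For tetraploid against diploid clones, against 16, scaling by the probes that all arrays detected gave 97, quantile 5, normexp 9, dark values at the lowest signal 10, only those 2 groups 31, and both filters and the slide block 0. For triploid against tetraploid clones, against 591, the filters gave 197 and 198 and the slide block 282. Skeletal genes called between triploid and diploid clones were 0 with both filters and the slide block, and between triploid and tetraploid clones 3 with both filters. With the replicate block, features called were 224 and 0 against diploid clones and skeletal genes 2 between triploid and diploid clones; the block changed no member's call but ended those on Mkx and Omd against diploid clones (adjusted p = 0.0562 and 0.0516) and on Ogn against tetraploid clones (0.0600), and the clones share only a number. More genes are tested under the looser filters and fewer samples enter with a clone left out; the cause of the other changes was not tested.

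Signs turned where differences were near 0. Runx2 between triploid and diploid clones was 0.045 with the slide block and without diploid clone 1, 0.0034 in the deposited table, 0.046 without triploid clone 1 and 0.17 without diploid clone 2 (-0.22 to 0.17 with a clone left out). Runx2 between tetraploid and diploid clones was -0.077 with normexp, -0.0082 without tetraploid clone 2 and -0.055 without diploid clone 3 (-0.055 to 0.47 with a clone left out), and between triploid and tetraploid clones 0.068 with normexp and 0.0075 without tetraploid clone 2 (-0.47 to 0.0075 with a clone left out). Sox9 between tetraploid and diploid clones was 0.43 without tetraploid clone 1 and 0.51 without diploid clone 2 (-0.84 to 0.51 with a clone left out). Runx1 between triploid and diploid clones was -0.60 at its other probe, an alternative chosen after seeing the data, as were the counts of skeletal genes. Scaling to probes detected on all arrays moved the median of all features to -0.05, -0.14 and 0.15 in triploid minus diploid, tetraploid minus diploid and triploid minus tetraploid clones. Probes near background bound what can be said of Sox5, Sox6, Sp7, Alpl and Ibsp.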
